A study of Mus musculus with 10 samples.

Results

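The widest p63 peaks in mouse keratinocytes were those that spanned 500 bp or more on chromosomes 1 to 19. They numbered 903 of the 8294 autosomal peaks (10.9%) and of 8451 peaks in all. They were selected on width, so their widths are given as a description, and they are compared with the 7391 autosomal peaks under 500 bp, called narrow here. A further 8 peaks of at least 500 bp lay on the sex chromosomes and were left out.

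The peaks came from chromatin immunoprecipitation and sequencing (ChIP-seq) of p63 with the 4A4 antibody in MK1 and MK2, a pair of keratinocyte lines from mouse that carry no labelled treatment or mutation. The series had 10 libraries in 5 groups of 2, 1 from each line: input chromatin, p63, and histone H3 with the marks H3K27ac, H3K4me1 or H3K4me3. Only the p63 peak list is described here. The authors made that 1 list from both p63 libraries by the irreproducible discovery rate (IDR), and it gives positions without heights, so depth is unknown and wider peaks cannot be told apart from stronger ones. Each line is 1 library and the list merges them, so no value for MK1 or MK2 and no test across samples can be given. Brackets hold 95% intervals (Wilson for a share, Newcombe for a difference between shares) that cover counting error only. Peaks of 1 list are not replicates, and those at 1 locus share their DNA.

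p63 is a relative of the tumour suppressor p53 that stratified epithelia such as epidermis need in order to form. It binds DNA as a tetramer at a response element of paired decamers, each with a C and a G at fixed places in its core, and many of its sites lie in enhancers away from gene starts. In basal keratinocytes it is known for acting on keratins, cell adhesion genes and regulators of the cell cycle.

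The sequences below show such elements under wide peaks near annotated gene starts, the stretch of the genome for which RefSeq sequence (build GRCm38.p6, the same coordinates as mm10) was at hand. Capitals mark the best match to the p53 family full site, a pair of decamers in which the core C and G are required and at most 3 of 20 letters depart from the consensus. The pattern reads the same on both strands, so 1 search covers both. Each stretch is written 5′ to 3′ along the gene's strand, with up to 60 bases on either side. None runs past the annotated start used unless the match is there. Some of these starts lie inside the gene or past another of its starts, so not every stretch is upstream of the whole gene.

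Gtse1: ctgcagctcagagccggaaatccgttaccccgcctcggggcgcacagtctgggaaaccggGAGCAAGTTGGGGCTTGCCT
Mthfd1: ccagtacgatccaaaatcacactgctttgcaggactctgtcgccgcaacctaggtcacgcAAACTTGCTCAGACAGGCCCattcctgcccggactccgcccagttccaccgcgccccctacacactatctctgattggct
Rps27l: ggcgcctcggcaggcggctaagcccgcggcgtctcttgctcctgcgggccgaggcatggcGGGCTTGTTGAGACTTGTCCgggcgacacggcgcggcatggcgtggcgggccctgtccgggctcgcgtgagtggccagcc
Cd151: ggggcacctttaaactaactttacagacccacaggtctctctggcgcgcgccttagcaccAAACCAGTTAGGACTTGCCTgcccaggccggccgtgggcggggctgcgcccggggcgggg
Rab21: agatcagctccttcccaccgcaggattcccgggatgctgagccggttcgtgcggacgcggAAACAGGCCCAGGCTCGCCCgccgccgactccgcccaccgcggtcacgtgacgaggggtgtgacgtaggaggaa
Bbc3: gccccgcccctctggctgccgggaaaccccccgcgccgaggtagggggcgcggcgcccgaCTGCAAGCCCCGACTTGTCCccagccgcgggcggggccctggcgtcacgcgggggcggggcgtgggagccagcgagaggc

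The Gtse1 stretch is chr15:85859885-85859964 on the plus strand, under a peak of 624 bp. Its site departs from the consensus at 1 letter and begins at the base before 1 of the annotated starts of Gtse1. Another annotated start of the gene lies upstream of the site, under the same peak. Gtse1 is a protein that binds p53 late in the cell cycle. The Mthfd1 stretch (chr12:76255030-76255169, plus strand) lies under a 512 bp peak, with 1 mismatch and a first base 142 bases before the start. Mthfd1 is an enzyme of folate metabolism. The Rps27l stretch (chr9:66946236-66946375, plus strand) lies under an 836 bp peak, again with 1 mismatch, 117 bases before 1 of the annotated starts of this ribosomal protein gene, a known p53 target. The Cd151 stretch (chr7:141467242-141467361, plus strand) lies under a 609 bp peak with 2 mismatches, 60 bases before the start. Cd151 is a tetraspanin partner of laminin-binding integrins. The Rab21 stretch (chr10:115315592-115315725, minus strand) lies under a 590 bp peak with 2 mismatches, 74 bases before an annotated start. That start lies inside the gene, which encodes a small GTPase of endosomes. The Bbc3 stretch (chr7:16309426-16309565, plus strand) lies under a 624 bp peak with 3 mismatches, 97 bases before an internal start of the gene, which encodes the apoptosis protein PUMA. The first 5 are the protein-coding starts whose best site had at most 2 mismatches, and Bbc3 was added as a known p53 target, both after the matches were seen. A match is a description of letters and no measurement of binding at that place.

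Among wide peaks that overlapped a start window (250 bases before to 50 after an annotated start), 15 of 50 held a full site in the overlap, or 30.0% (19.1 to 43.8). Narrow peaks held one in 56 of 250, or 22.4% (17.7 to 28.0). Wide peaks overlap more bases, and per kb of overlap there were 1.12 sites under wide peaks and 1.16 under narrow peaks, against 0.0407 in windows that met no peak. Of all 31396 start windows 1.40% held a site, and of those with no peak 1.16%. The 15 sites under wide peaks lay a median of 61 bp from the peak's midpoint, against 27 bp for narrow peaks. A wider peak leaves room for a larger distance and the sets were split on width, so this difference is only a description. The rest of the peaks' DNA was not searched.

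**Figure D1:**
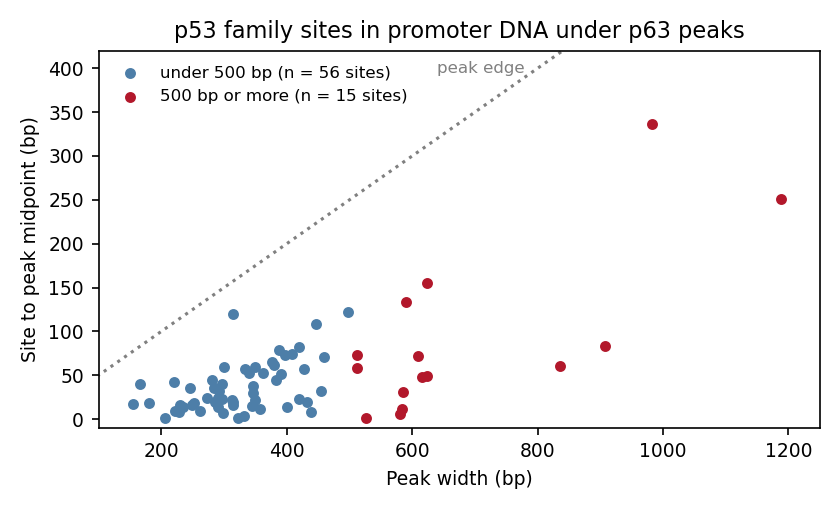
Distance in bp from a p53 family full site to the midpoint of its p63 peak (y axis) against peak width in bp (x axis), for sites in start windows; each point is 1 site, and the dotted line marks the peak's edge. The 15 sites under wide peaks lie 1 to 336 bp from the midpoint and the 56 under narrow peaks 1 to 122.5 bp.

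Wide peaks ran from 500 to 1494 bp with a median of 586 bp, and narrow peaks from 138 to 499 bp with a median of 291 bp. The wide set covered 20.3% of the autosomal base pairs under p63 peaks. It held 190 peaks of at least 700 bp and 30 of at least 1000 bp. Widths fell off smoothly through the threshold, with 1071 peaks at 400 to 499 bp and 504 at 500 to 599 bp. There were 11 peaks of exactly 500 bp and 10 of 499 bp. Just inside, the first 3 by chromosome number and position lay 608.2 kb from Slc4a3, inside Zfp710 and inside Nectin1. Just outside, the first 3 lay in Sh3bp4, at an end of Serpinb10 and near Prdx6. No gap in width separates the sets.

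**Figure D2:**
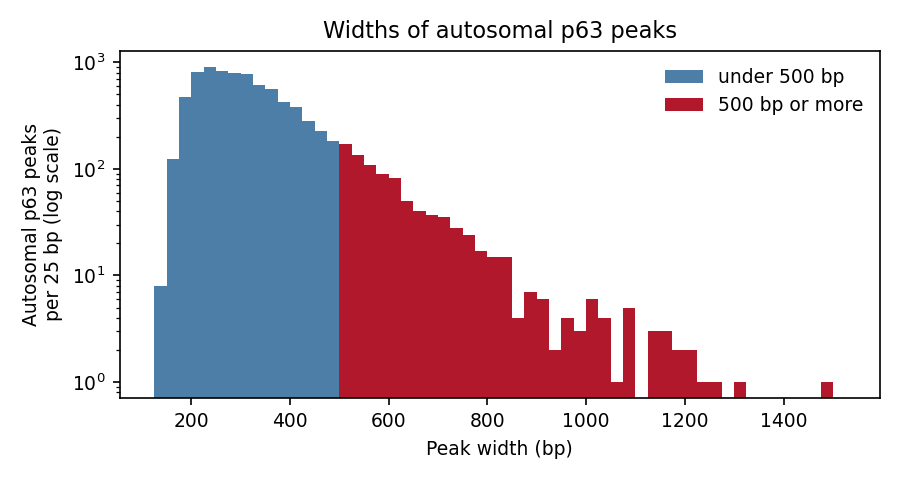
Number of autosomal p63 peaks per 25 bp of width (y axis, log scale) against width in bp (x axis), narrow peaks in blue and wide peaks in red. The distribution passes through 500 bp without a break and ends at 1494 bp.

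The widest peak of all, 1494 bp, lay 2.60 kb outside Errfi1, a feedback inhibitor of the EGF receptor. Its nearest other peak was 89.2 kb away, so no second peak stood beside it. Next among peaks with a named neighbour came 1260 bp inside Zmiz1, a transcriptional coregulator, 1240 bp inside Zmynd8, a reader of histone marks, and 1222 bp inside Sppl3, an intramembrane protease. A 1195 bp peak lay 41.0 kb from Dll1, which encodes a Notch ligand, with a narrow peak of 396 bp at 163 bp from its edge. The 1188 bp peak at Fermt1, which encodes the integrin activator kindlin-1, was inside the gene and 0.716 kb from its boundary. Both keratin genes on the list had their peaks outside the gene: 1173 bp at 11.4 kb from Krt80 and 1166 bp at 2.14 kb from Krt5, the type II keratin of basal cells.

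A 1160 bp peak had Myc, a regulator of growth and proliferation, as its nearest protein-coding gene at 48.7 kb. Peaks of 1143 bp and 1145 bp lay 154.8 kb from Bcl11b, a zinc finger transcription factor of skin and T cells, and 0.508 kb from Sh3tc2. Inside genes there were 1200 bp in Mideas (nearest boundary that of Gm31513), 1091 bp in Sema4b, a semaphorin, 1075 bp in Cic, a transcriptional repressor, and 1058 bp in Tnpo3, near Irf5. Outside genes there were 1088 bp at 19.7 kb from Riok1, 1086 bp at 24.8 kb from Nfkbia, the inhibitor of NF-κB, and 1084 bp at 2.42 kb from Slc16a3, a lactate transporter. The other two of the 20 widest stood far from genes: 1309 bp at 115.34 kb from Gm2244 on chromosome 14, 570.1 kb from the next peak, and 1147 bp at 1035.1 kb from Lrrc4c on chromosome 2. The list was not screened here against regions of mm10 known for unspecific signal, so what those last peaks hold was not tested. Of the 20 widest, 7 lay inside genes, 2 at a gene end, 6 between genes within 25 kb and 5 farther out.

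Genes were linked to wide peaks when the peak's midpoint lay inside the gene or within 25 kb of it, which says nothing of whether the gene responds. By that measure 1064 of 20560 autosomal protein-coding genes (5.18%) had a wide peak, and 6336 (30.8%) had a p63 peak of any width. Of the genes with any peak, 16.8% had a wide one. Several wide peaks at 1 gene were uncommon: 112 genes had at least 2, 21 had at least 3, and Zmynd8 and Nectin1 had 5 each.

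At Nectin1, an adhesion molecule of cell junctions whose mutation causes an ectodermal dysplasia with cleft lip, the 5 wide peaks measured 773, 747, 715, 602 and 500 bp. Of the 5, 4 lay inside the gene and the 747 bp peak 16.9 kb outside it, among 9 peaks of any width. At Zmynd8 the widths were 1240, 587, 553, 541 and 521 bp, so 1 peak stood well above the rest. Genes with 3 wide peaks included Itga3, the laminin-binding integrin subunit (632, 627 and 555 bp, of 4 peaks), and Src, the tyrosine kinase of adhesion sites (3 of 7 peaks). Rxra, a nuclear receptor, had 3 of 5, and Actn4, an actin crosslinker, 3 of 4. The same count was reached by Map4k1 (3 of 4), Vsnl1 (3 of 6), Asap1, 2900026A02Rik and Rgs12 (3 of 7 each) and Frmd4b (3 of 8). Tjap1, Lrrc73 and Yipf3 are neighbours and shared their 3. Map4k1 and Actn4, also neighbours, shared a 967 and a 523 bp peak.

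The list with the highest share of genes with a wide peak was the one for attachment of basal cells to the basement membrane. Of 16 hemidesmosome and basement membrane genes 11 had one, and 14 of their 62 peaks were wide, or 22.6% (14.0 to 34.4), against 10.9% of all autosomal peaks. With genes linked within 10 kb the share was 19.1% (10.4 to 32.5), an interval that takes in 10.9%. The integrin subunits had 1009 bp inside Itga6, the 3 at Itga3, and 576 bp at 16.6 kb from Itgb4, inside Sap30bp. Among the linkers to keratin, Plec (plectin) had 913 bp at 12.1 kb, and Dst, which encodes BP230, had 721 and 520 bp inside its 400.8 kb. The 520 bp peak covered the window of an annotated start within Dst. Among laminin chains, Lama5 had 879 bp outside the gene and Lama3 had 595 bp inside it. Col7a1, the anchoring fibril collagen, had 709 bp at 4.30 kb, at an end of Uqcrc1. Cd151 had its 609 bp peak 0.122 kb from the start, the one whose sequence is shown above. Lists were not matched for gene length, and longer genes take in more peaks.

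Junction genes had a wide peak at 6 of 20, with 10 of 58 peaks wide (17.2%, 9.64 to 28.9). Besides Nectin1, Dsp (desmoplakin) had 730 bp inside the gene, Jup (plakoglobin) 612 bp and Nectin4 587 bp. The desmosomal cadherin genes Dsc3 and Dsg3 each had a wide peak at an end of the gene, 517 bp at 0.205 kb and 506 bp at 0.603 kb. Of the 7 basal keratin genes, Krt5 and Krt6a were linked to the same 2 peaks of 1166 and 863 bp, which lie nearest Krt5. Among p53 targets 6 of 27 genes had one and 8 of 41 peaks were wide (19.5%, 10.2 to 34.0). Sfn, the cell cycle inhibitor 14-3-3 sigma, had 827 and 582 bp, and Phlda3, an inhibitor of Akt, 768 and 548 bp. The 827 bp peak lay nearer to Zdhhc18 than to Sfn. The apoptosis genes Bbc3 and Pmaip1 had 624 and 563 bp, and Zmat3, an RNA-binding protein, 537 bp. Sesn1, a stress-induced sestrin, had 552 bp at 20.6 kb, inside Armc2.

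Of 34 epidermal transcription factors 6 had a wide peak (7 of 46 peaks, 15.2%). Trp63, the gene of p63, had 736 bp inside it, and a 1040 bp peak lay 59.4 kb outside, past the 25 kb limit. Fosl2, an AP-1 subunit, had 719 and 589 bp, Zfp750, a differentiation regulator, 650 bp at 0.598 kb, and Dlx3, a homeobox gene, 632 bp, a peak it shared with Itga3. Junb, another AP-1 subunit, had 592 bp and Runx1 522 bp. Growth factor signalling had 6 of 18 genes: after Errfi1 came Tgfa (679 bp), a ligand of the EGF receptor, and the receptors Fgfr2 (631 bp) and Igf1r (617 bp), then the ligand Ereg (542 bp) and Lrig1 (511 bp), a brake on EGF receptors. The Notch pathway had 4 of 16, namely the ligand Jag2 (954 bp), the receptor glycosyltransferase Lfng (897 bp), the feedback gene Nrarp (828 bp) and the coactivator Maml1 (565 bp). The Maml1 peak lay 19.9 kb from the gene, inside Canx. The ectodermal dysplasia list had 4 of 15, with Edar (508 bp) beside genes named above. Wnt, BMP, TGF-beta and hedgehog genes had 2 of 24, Wnt4 (526 bp) and Smad7 (518 bp). Chromatin regulators had 1 of 19, Tet3 (659 bp), which makes hydroxymethylcytosine. Over all autosomal protein-coding genes the share was 5.18%, and over those with any peak 16.8%. Of these lists' peaks, 6 of 35 were wide for growth factor signalling, 4 of 25 for Notch and 8 of 48 for ectodermal dysplasia. Nectin1 is on the ectodermal dysplasia list too, and 5 of those 8 wide peaks are its own. For Wnt, BMP, TGF-beta and hedgehog genes 2 of 27 were wide, and for chromatin regulators 1 of 15. The interval of each of these shares takes in 10.9%, the share of all autosomal peaks.

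The 25 genes of the terminal differentiation list, which serve the cornified layers, had no wide peak inside or within 25 kb. They had 27 peaks at 15 genes, with a median of 258 bp and a widest of 494 bp, just under the threshold. A count of 0 among 27 allows a share of up to 11.1%, a limit that takes in the 10.9% of all peaks, so a lack of wide peaks was not detectable at this number. Genes of the cornified layers outside the list did have wide peaks, seen after the values were known: 562 bp at 2.49 kb from Ppl, 588 bp at 2.32 kb from Csta1 and 557 bp between genes nearest Lce1m. The check lists for other cell types had wide peaks at 2 of 77 genes, or 2.60% (0.72 to 8.98), an interval that takes in the 5.18% of all genes. The keratinocyte and general lists had them at 45 of 212 (21.2%, 16.3 to 27.2). Those lists also had more peaks of any width, at 141 of 212 genes against 17 of 77. Of the peaks themselves 54 of 356 (15.2%, 11.8 to 19.3) and 2 of 28 (7.14%, 1.98 to 22.6) were wide, and the last interval takes in 10.9%. The wide peaks of the other cell types were 577 bp at 22.4 kb from Pmel, a pigment gene, with Dgka nearer, and 533 bp inside Fbln1, a matrix gene of fibroblasts. The leukocyte, endothelial, neuronal, muscle and hepatocyte lists had none among 4, 3, 7, 4 and 1 peaks, too few to tell.

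**Figure D3:**
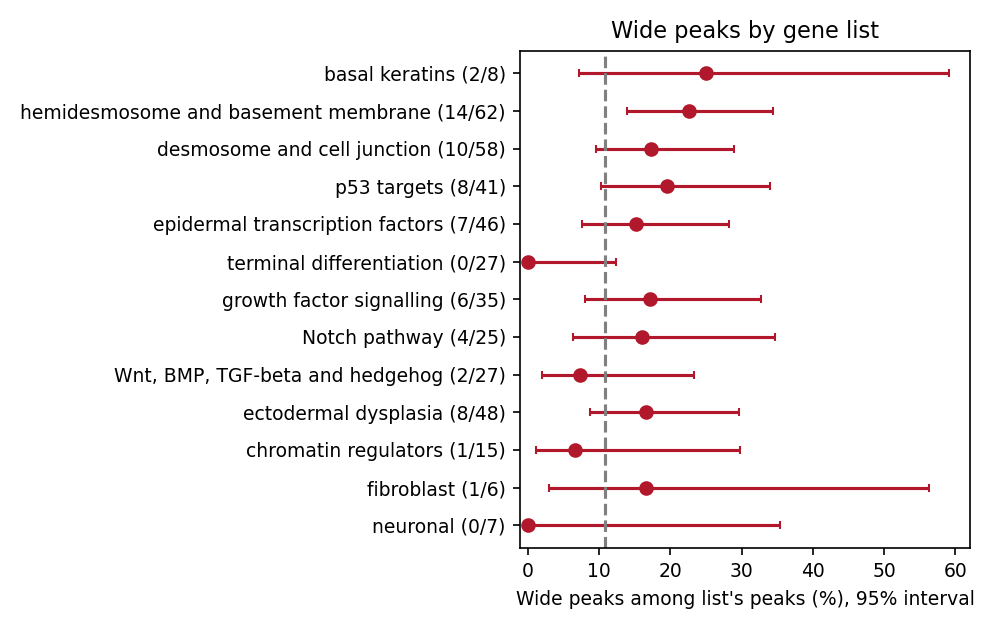
Share of a gene list's p63 peaks that are wide (x axis, percent), with 95% Wilson intervals, by list (y axis, wide over all peaks in brackets, lists of 5 or more peaks); the dashed line is the 10.9% of all autosomal peaks. With genes linked within 25 kb, as plotted, the hemidesmosome and basement membrane list has the only interval wholly above the line, from 14.0% to 34.4%, and within 10 kb it is not above it.

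Wide and narrow peaks differed little in where they lay relative to genes. Of the wide peaks 421 lay inside a protein-coding gene and over 1 kb from its ends, or 46.6% (43.4 to 49.9), against 49.4% of narrow peaks, a difference of -2.75 percentage points (-6.18 to 0.71). A boundary, meaning either end of a gene, was within 1 kb of 67 wide peaks, or 7.42%, against 7.78%. Between genes, 203 (22.5%) were at 1 to 25 kb and 212 (23.5%) farther out, against 21.5% and 21.4%. The intervals of all 4 differences took in 0 at the 500 bp threshold. At 600 bp those inside genes (-5.48, -10.4 to -0.45) and over 25 kb away (4.42, 0.27 to 9.02) did not. With noncoding genes counted too, that at 1 to 25 kb did not (3.62, 0.60 to 6.80). The median distance to a boundary was 18.5 kb for wide and 17.3 kb for narrow peaks.

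Annotated starts gave the same picture. On the autosomes with start annotation, 55 of 869 wide peaks (6.33%) and 5.18% of narrow peaks lay within 1 kb of one, a difference of 1.15 percentage points (-0.39 to 3.03). Not every gene there had a listed start, and a peak at the start of such a gene could be counted as not near one. Genes with a listed start were cut into 3 equal parts from it. They held 352 of the 460 wide and 3069 of the 3966 narrow peaks with midpoints inside genes. Of those wide peaks 41.2% lay in the first part, 32.4% in the middle and 26.4% in the last. For narrow peaks the shares were 39.5%, 31.8% and 28.7%. Wide peaks at 1 to 25 kb from a nearest gene with a listed start were on its start side in 94 of 153 cases (61.4%). For narrow peaks this share was 55.2%, and the interval of that difference also took in 0 (-2.13 to 14.1). The 460 midpoints inside genes, those near an end included, fell in 392 host genes of median length 77.7 kb, against 81.1 kb.

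**Figure D4:**
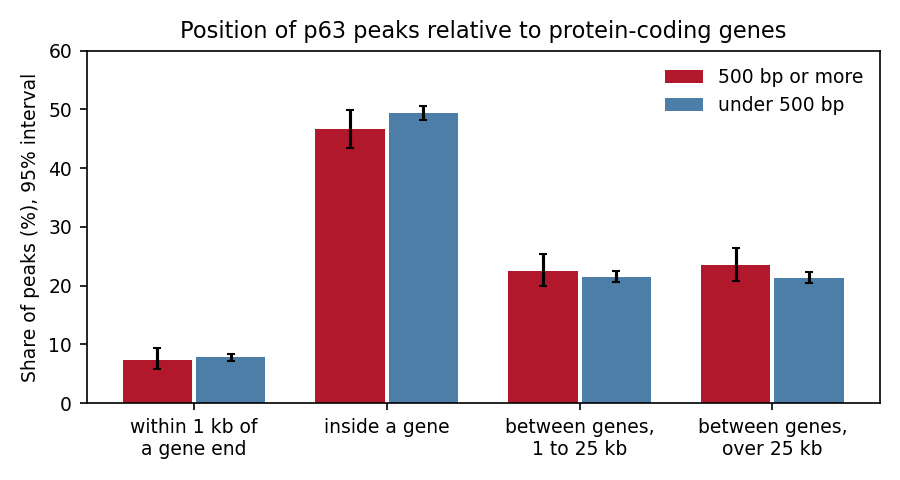
Share of wide (red) and narrow (blue) p63 peaks (y axis, percent, bars from 0) in 4 places relative to protein-coding genes (x axis), with 95% Wilson intervals. The largest difference, wide minus narrow, is -2.75 percentage points inside genes, and at this threshold each pair's interval of the difference takes in 0.

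The differences were larger among the widest of the wide. Among the 190 peaks of 700 bp or more, 60 were over 25 kb from a protein-coding gene, and 15 of the 60 were on chromosome 15. By width, 21.6% of peaks of 500 to 599 bp and 20.6% of 600 to 699 bp were that far out, then 32.7% of 700 to 798 bp and 30.2% of 800 to 1494 bp. With the threshold at 700 bp the difference from the other peaks was 10.2 percentage points, and 6.73 without chromosome 15.

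Wide peaks stood closer to other p63 peaks. Another peak lay within 10 kb, midpoint to midpoint, of 329 wide peaks, or 36.4% (33.36 to 39.6), against 28.4% of narrow peaks, a difference of 8.01 percentage points (4.76 to 11.4). The nearest other peak was a median of 17.9 kb away, against 29.8 kb, and the median was shorter for wide peaks on 18 of 19 autosomes. The share within 10 kb was higher on 16 of 19. At 2 kb the shares were 13.2% and 9.35%, and at 100 kb 85.7% and 76.5%, so wide peaks more often had a neighbour at short and long range alike.

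By place relative to genes, the interval of the difference lay above 0 inside genes and took in 0 in the other 3 places. Inside genes 40.4% of wide peaks had a peak within 10 kb against 29.1% of narrow ones, a difference of 11.3 percentage points (6.46 to 16.2). Over 25 kb from genes the shares were 30.7% and 24.8%, with an interval of the difference from -0.36 to 12.7. At gene ends they were 35.8% and 29.6% (-4.86 to 18.7), and at 1 to 25 kb 34.5% and 30.1% (-2.18 to 11.5). At the 500 bp threshold wide peaks also had wide neighbours more often. Where a peak lay within 10 kb, the nearest was wide for 75 of 329 wide peaks (22.8%) and for 12.3% of narrow ones, a difference of 10.5 percentage points (6.01 to 15.5). At 700 bp that difference was 3.52 (-0.25 to 11.4), and without chromosome 15 as well it turned to -2.96 (-3.75 to 2.43).

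The rise with width began below the threshold. A neighbour within 10 kb was found for 22.5% of peaks of 138 to 199 bp, 30.4% of 300 to 399 bp, 34.5% of 400 to 499 bp and 33.9% of 500 to 599 bp. The share was 45.2% at 700 to 798 bp and 34.9% at 800 to 1494 bp, where 86 peaks leave wide intervals. When peaks within 10 kb of each other were joined into groups, the wide share was 9.79% of single peaks, 12.2% in pairs, 16.4% in groups of 3, 14.6% in groups of 4 and 20.4% in groups of 5 or more. Of the 19 groups of 5 or more, 13 (68.4%) held a wide peak, against 22.4% of pairs, 35.4% of groups of 3 and 43.8% of groups of 4. A larger group has more peaks of which any may be wide, so these shares rise with size by that alone.

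**Figure D5:**
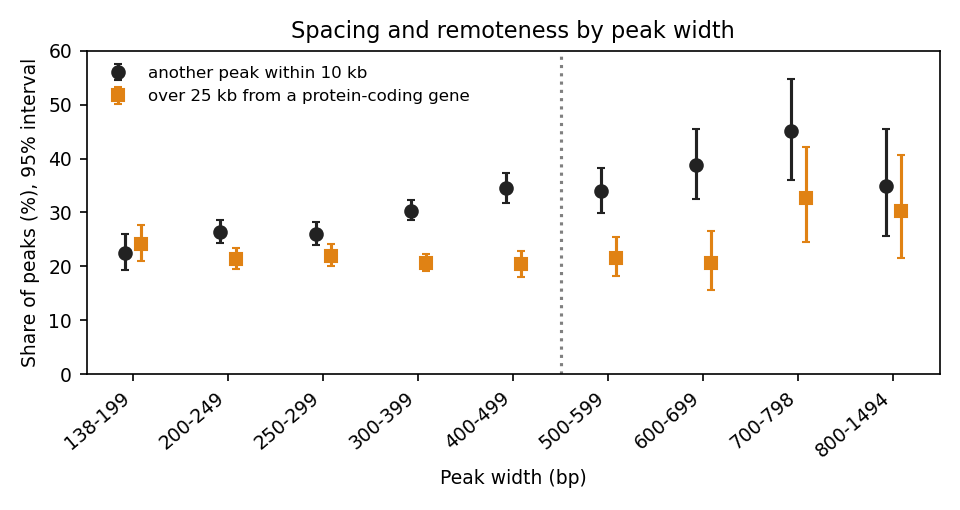
Share of peaks (y axis, percent, with 95% Wilson intervals) that have another peak within 10 kb (black) or lie over 25 kb from a protein-coding gene (orange), by peak width in bp (x axis); the dotted line marks 500 bp. The black points rise from 22.5% to 34.5% before the line, and the orange ones lie between 20.4% and 24.2% up to 699 bp.

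Most wide peaks had no other wide peak within 10 kb. Joining wide peaks alone within 10 kb left 810 single, 36 pairs and 7 chains of 3, with no longer chain. The median distance from a wide peak to the nearest other wide peak was 274 kb. Wide peaks are a small part of all peaks, and no like figures were taken for narrow ones. The closest pairs were 533 and 667 bp at Gab1, an adaptor of growth factor receptors, with 64 bases between them, and 598 and 504 bp at Rhod, a small GTPase, with 80. At Krt5 the 863 and 1166 bp peaks had 123 bases between them. At Fosl2 the 719 and 589 bp peaks had 229. These pairs were picked for their closeness after it was seen.

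Of the 7 chains, that at Rhod spanned 10.7 kb, with peaks of 598, 504 and 567 bp. The chain inside Vsnl1, a neuronal calcium sensor gene, measured 630, 895 and 545 bp over 4.09 kb, and that inside Itgb5, an integrin subunit, 538, 511 and 605 bp over 6.76 kb. A chain of 789, 614 and 846 bp on chromosome 17 was 49.0 to 53.5 kb from its nearest protein-coding gene, Haao.

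The chain on chromosome 1 measured 589, 747 and 660 bp over 14.7 kb and was 138.0 kb or more from the nearest protein-coding gene, Camk1g. It lay at the microRNA gene Mir205, with its first peak 0.828 kb and its second 6.83 kb from the hairpin. miR-205 is abundant in stratified epithelia. Its mature arms, from RefSeq, are shown because no protein-coding gene stands as near to these peaks, and capitals mark the seed, bases 2 to 8, by which a microRNA pairs with its targets. Of 919 autosomal microRNA hairpins, 105 had a peak of any width within 10 kb, and 12 of those 105 a wide one. Of all autosomal peaks 10.9% were wide, but that is a share of peaks and the 12 of 105 is a share of hairpins. Whether wide peaks are linked to microRNA genes was therefore not tested. Mir205 was picked after its peaks were seen.

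mmu-miR-205-5p: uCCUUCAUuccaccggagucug
mmu-miR-205-3p: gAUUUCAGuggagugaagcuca

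The other two chains lay in the gene-poor DNA around Myc on chromosome 15, one of 771, 743 and 902 bp at 366.2 to 376.9 kb from the gene and one of 700, 622 and 500 bp at 85.3 to 93.1 kb. Myc was the nearest protein-coding gene of 14 wide peaks, more than any other gene, and of 22 peaks of any width. The 14 spanned 709.1 kb, lay 19.7 to 531.3 kb from Myc, and had a median width of 751.5 bp, and 9 of them reached 700 bp. The 1160 bp peak described above lies among them, inside the long noncoding RNA gene Pvt1. The densest 1 Mb for wide peaks was here, with 16 of 24 peaks wide in 977.99 kb. The next densest windows held 8, at Zmynd8 and Prex1 on chromosome 2 (8 of 14 peaks) and on chromosome 7 (8 of 19). Windows with 7 wide peaks lay at Nectin1 and Trim29 on chromosome 9 (7 of 27 peaks), around Hes1, a Notch target gene, on chromosome 16 (7 of 24), and at Sik1, a salt-inducible kinase, and Cryaa on chromosome 17 (7 of 21). The last was the most compact of these, at 226.7 kb. All 4 peaks that had Cryaa, a lens crystallin, as their nearest protein-coding gene were wide, from 506 to 811 bp.

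Chromosome 15 had the highest wide share, 66 of 415 peaks or 15.9% (12.7 to 19.7), and chromosome 4 the lowest, 28 of 433 or 6.47%, although the widest peak of all is on it. Whether wide peaks around Myc act on that gene, on Pvt1 or on neither was not tested.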

How the data were processed

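p63 ChIP-seq libraries of the keratinocyte lines MK1 and MK2 were sequenced as 50 bp single-end reads, per the labels' protocols. The build mm10, SAMtools 1.1 and Bowtie 1.1.1 are named in the submitters' processing notes. The authors ran IDR on both libraries to make the deposited list, per the labels, and it holds 3 columns of positions, with no score. Of the peak caller and thresholds nothing is given in the sources used here.

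Peaks were placed by midpoint on genes of a RefSeq table of GRCm38.p6. Of 49943 genes 340 with scaffold positions were left out. Start windows came from RefSeq and covered 18 of 19 autosomes, where not every protein-coding gene had one. All values are counts, medians and shares with intervals, without a test, since 1 list has no replicates. Scripts were tested on simulated data and used Python 3.11.15, numpy 2.4.6, pandas 2.3.3, scipy 1.17.1 and matplotlib 3.10.9.

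The members and the 18 gene lists (297 genes, 296 matched) were chosen with earlier results of these data known. Genes named were the neighbours of the 20 widest peaks, the 15 genes with most wide peaks, up to 4 genes per list, the widest first, 3 peaks on each side of the threshold and genes at the longest chains. Genes beyond that rule, chosen after their values were seen, are the remaining hemidesmosome, junction and list genes, and the genes nearer to their peaks. So are the promoter examples, the closest pairs, the densest windows, Ppl, Csta1, Lce1m, Mir205 and Pvt1. A single gene of the lists is counted but not reported here. Alternatives changed the threshold, gene set, distances and chromosomes.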

Additional observations from a re-analysis of the deposited data

How the results depend on the processing

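No paired analysis was possible because the 1 list merges both lines and no result comes from a test. Of 96 alternative values 73 stayed close to the reported one, within its interval or within 1.5 times for counts. The alternatives without chromosome 15 and those on mismatches were chosen after seeing the data.

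The positions of the widest peaks depended on the threshold. At 700 bp the wide minus narrow difference was -10.9 percentage points inside genes and 10.2 over 25 kb from genes, and without chromosome 15 as well these were -8.19 and 6.73. At 600 bp they were -5.48 and 4.42, both with intervals clear of 0. With noncoding genes counted too, the difference over 25 kb was -1.32 and that at 1 to 25 kb 3.62 (0.60 to 6.80). A neighbour within 10 kb was commoner for wide peaks by 11.5 percentage points at 700 bp and by 13.1 without chromosome 15. The nearest neighbour was wide more often by 3.52 at 700 bp (-0.25 to 11.4), and less often by a difference of -2.96 without chromosome 15, where none of the nearest neighbours was that wide. The difference was above 0 in 17 of 18 spacing alternatives.

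Genes with a wide peak numbered 2114, 487 and 208 at thresholds of 400, 600 and 700 bp, 682 and 2788 within 10 and 100 kb, and 601 by nearest gene. The wide share at 400 and 700 bp was 37.1% and 9.68% for hemidesmosome and basement membrane peaks and 34.5% and 6.90% for junction peaks, against 23.8% and 2.29% of all peaks. Terminal differentiation peaks had 14.8% at 400 bp. p53 target peaks had 7.32% at 600 bp (2.52 to 19.4, against 4.81% of all peaks), 4.88% at 700 bp, and 12.5% with genes linked within 100 kb. The hemidesmosome share was 19.1% (10.4 to 32.5) within 10 kb. The junction share was 19.3% (12.4 to 28.8) within 100 kb, and its interval by nearest gene was 11.2 to 33.0, both above 10.9%. Both include the 5 wide peaks linked to Nectin1, and the share without that gene was not taken. Terminal differentiation peaks within 100 kb were wide in 3.64%. At most 2 mismatches left a site under 14.0% of wide peaks at starts.

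Read depth is unknown, and a peak's width can depend on it.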
